A study of Sus scrofa with 35 samples.

Results

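Large White is a lean pig breed selected for growth in temperate climates, and its response to heat in the longissimus dorsi, the long muscle of the back, is described here at the level of mRNA. The comparison rests on the 12 arrays that the sample titles assign to Large White pigs, 6 under heat stress (HS) and 6 at thermoneutrality (TN), out of 35 arrays in the study. The other 23 arrays came from Creole pigs, a Caribbean breed (6 HS and 6 TN), and from F1 crosses of both breeds (5 HS and 6 TN). Each array carried Cy3-labelled RNA from the muscle of 1 castrated male growing pig, and the labels give each pig its own animal number.

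Both Large White groups shared the same breed, sex, muscle and housing in a climatic room, and the labels name no other treatment. TN pigs were kept at 24 °C and slaughtered there. HS pigs are labelled 30 °C in the sample titles, whereas the growth protocol and the study's methods describe a challenge at 32 °C for 5 days, so both temperatures are given. Per those methods, TN pigs were slaughtered before the room was heated and HS pigs afterwards from other pens, so temperature, slaughter day, age and pen cannot be told apart in this comparison. Pigs of 1 breed came from a few litters, which the labels do not give, so relatives entered the fit as independent animals.

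Skeletal muscle turns a large part of an animal's fuel into heat. Pyruvate from glycogen and glucose enters the mitochondria through the pyruvate dehydrogenase complex, and fatty acids enter through beta-oxidation. Both feed the TCA cycle, whose electrons pass through complexes I to IV and drive ATP synthase. Pigs in the heat eat less, which lowers the fuel to be burned, and cells that are themselves overheated make chaperones such as HSP70 and HSP90, which refold damaged proteins. The longissimus of a lean breed is made mostly of fast, glycolytic fibres, with slow, oxidative fibres in islets between them.

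Values are the log2 of spot brightness after quantile normalisation, so a difference of 1 is a doubling, and levels are compared between groups and never between genes. A probe entered the tests where 75% or more of the arrays in any 1 of the 6 groups read it clearly over background. That left 41517 of 60305 probes, and those with a symbol covered 9919 genes, each read by its brightest probe. The share of probes clearly over background was 58.4% to 71.8% per TN array and 65.7% to 73.9% per HS array. The third quartile of raw brightness ran from 8.73 to 9.40 with a median of 9.02 in TN, and from 8.88 to 9.62 with a median of 9.36 in HS, as log2 intensity. All 15 muscle identity genes measured, such as ACTA1 (skeletal actin) and CKM (muscle creatine kinase), were well above background on all 12 arrays.

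A pair of arrays stood apart. TN replicate 6 had a first-component score of 44.6, against -61.5 to -13 for the other TN arrays, and its median correlation was higher with the HS arrays (0.9895) than with its own group (0.9841). By a smaller margin the same held for TN replicate 2 (0.99 against 0.9887) and TN replicate 4 (0.9883 against 0.9882). HS replicate 5 lay at 93.7, the far end of the same axis, and had the lowest median correlation of the 12 arrays (0.9759). HS replicate 2 lay at -32.4, within the range of the TN arrays. Since TN replicate 6 lay among the HS arrays and HS replicate 5 far from the TN arrays, leaving out the former can widen differences and leaving out the latter can narrow them, so values that rest on them are given both ways.

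**Figure D1:**
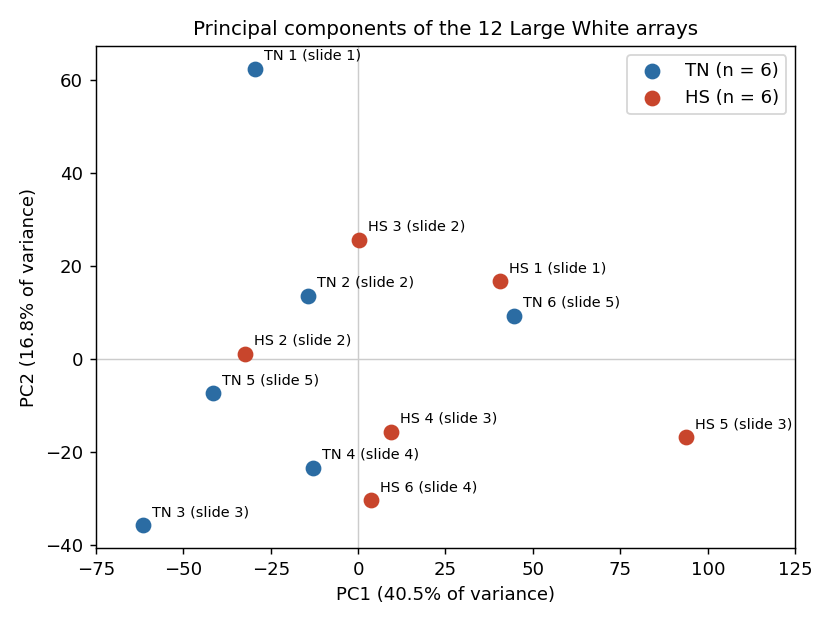
Principal components of the 12 Large White arrays over all measured probes, with the first component (40.5% of variance) on the horizontal axis, the second (16.8%) on the vertical axis, 1 point per array and the slide number beside it. TN 6 lies at 44.6 among the HS arrays and HS 5 lies alone at 93.7.

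Few probes passed the test in Large White. With limma's fit and Benjamini-Hochberg adjustment over all 41517 probes, 2 passed an adjusted p of 0.05 (0.00482%), and both fell. At an unadjusted p under 0.05 there were 6893 probes (16.6%), of which 2820 were higher (6.79%) and 4073 lower (9.81%) under heat. Just outside the threshold the p-values were dense, with 82 probes under an adjusted p of 0.06 and 574 under 0.1. The 6 HS values did not overlap the 6 TN values for 445 probes (1.07%), 157 of them higher (0.378%) and 288 lower (0.694%). Leaving out TN replicate 6, the TN array nearest to HS, gave 1064 probes (2.56%), 400 higher (0.963%) and 664 lower (1.6%), whereas leaving out HS replicate 5 gave 0 and leaving out both gave 28. Differences were small: the median size over genes was 0.14 on the log2 scale, and 47 genes differed by more than 1.

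The probes that passed are shown by their first 30 bases of 60, since their place in the transcript was not mapped.
UPK2 (A_72_P185251): ggaaattggtttccttccatttcagctctt
unnamed (A_72_P423769): atacaccttcgcattatgtaagctcaacag

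The UPK2 probe, annotated to uroplakin 2, a protein known from the lining of the bladder, read 6.37, 6.61 and 6.85 (lowest, median and highest log2 intensity) in TN and 5.91, 6.03 and 6.26 in HS. It was well above background on all 12 arrays and the groups did not overlap. UPK2 fell by 0.54 (SE 0.08, n = 6 and 6, limma adjusted p = 0.0114), a 1.46-fold change. With TN replicate 6 left out the difference was -0.59 (limma adjusted p = 0.00447). On the 4 slides that held both groups, the within-slide differences of UPK2 were -0.87, -0.37, -0.65 and -0.49. TN replicates 5 and 6 were on slide 5, which held no Large White HS array, so they do not enter within-slide values. UPK2 passed in 19 of 26 alternative analyses, with differences from -0.97 to -0.35 and a highest adjusted p of 0.193. It did not pass with the Large White arrays alone, with array brightness as a covariate, or without TN replicate 1 or 5 or HS replicate 1, 5 or 6. It is a single probe at low brightness, and the symbol rests on the array's annotation alone.

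A_72_P423769, for which no gene symbol was found, read 7.07, 7.14 and 7.37 in TN and 6.45, 6.69 and 6.76 in HS, again without overlap. A_72_P423769 fell by 0.54 (SE 0.09, limma adjusted p = 0.0275), and the within-slide differences were -0.68, -0.51, -0.37 and -0.44. It passed in 15 of the 25 alternatives that held it, with a highest adjusted p of 0.193.

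Neither probe showed a difference of that size in the other breeds. UPK2 differed by -0.19 in Creole and by -0.01 in F1, and the Large White difference exceeded the mean of these by -0.44 (SE 0.10, unadjusted p = 0.000164 in limma's fit). A_72_P423769 differed by -0.13 in both. The probes were picked for their Large White difference, which also enters this comparison, so the p-value of UPK2 is a description. Over all probes, however, the difference between the Large White response and the mean of the other responses passed for 0 probes in limma's fit (1505 at an unadjusted p under 0.05, which is 3.63%), with a smallest adjusted p of 0.9998. In simulated data with independent noise for each probe and array, 16% of 200 probes changed by 0.5 were recovered in that comparison. Of those changed by 1, 81.5% were recovered. Recovery in the real data can differ, since variation that probes share on an array was not simulated.

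A further 8 named genes in each direction were taken for the size of their difference among those with no overlap between groups, so their separation is a description. Energy genes stood among the 8 lower ones, with NDUFB9 and PDHA1 described together with their pathways. GPCPD1, which splits glycerophosphocholine, read 10.01, 10.28 and 11.01 in TN and 8.62, 9.55 and 9.84 in HS, a difference of -0.999 (SE 0.26, limma adjusted p = 0.0773). All 3 GPCPD1 probes were lower. EPM2A (laforin, a glycogen phosphatase) differed by -0.61 (SE 0.14, limma adjusted p = 0.0580) and NUDT3, a diphosphoinositol phosphatase, by -0.60. With slide as a block in the fit, GPCPD1 (limma adjusted p = 0.0384), EPM2A (0.0366) and NUDT3 (0.0323) passed. That fit gives less weight to TN replicates 5 and 6, whose slide held no Large White HS array.

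MLKL, an executor of necroptosis, read 6.20, 6.60 and 7.48 in TN and 5.30, 5.78 and 6.16 in HS, where 5 of 6 arrays were above background. The MLKL probe differed by -0.91 (SE 0.22, limma adjusted p = 0.0650), against 0.32 in Creole and 0.13 in F1. The Large White value differed from the mean of the others by -1.13 for MLKL (unadjusted p = 0.000184 in limma's fit, which did not pass over all probes). MLKL was picked for its Large White difference, so that p-value is a description. TMEM8B differed by -0.67, and TN replicate 4 was its highest array at 7.73.

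Of the 8 higher genes, FUT8, the enzyme that adds core fucose to N-glycans, had the smallest adjusted p. It read 7.34, 7.62 and 7.90 in TN and 8.01, 8.20 and 8.32 in HS, a difference of 0.57 (SE 0.11, limma adjusted p = 0.0557). Both FUT8 probes were higher, and it passed in 10 of the 25 alternatives that held it, among them the fit with slide as a block (limma adjusted p = 0.0394). ABR, an activator of Rac GTP hydrolysis, read 10.83, 11.54 and 11.69 in TN and 11.93, 12.32 and 12.65 in HS, a difference of 0.87 (SE 0.22, limma adjusted p = 0.0757), with 0.83 in Creole and 0.77 in F1.

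SLA-DRA, the alpha chain of the pig class II antigen-presenting molecule DR, read 12.96, 13.51 and 13.68 in TN and 13.69, 14.10 and 14.28 in HS. It differed by 0.62 (SE 0.25, limma adjusted p = 0.200), with all 7 probes higher. FNDC1, a fibronectin-domain protein, differed by 0.56, and BCAS1 by 0.74. ALOX15, a lipoxygenase, differed by 0.57 and could be read over background on 4 of 6 TN arrays. CD1E, a lipid-antigen protein of dendritic cells, was above background on 1 of 6 TN arrays and 6 of 6 HS arrays, so its TN values are mostly at the background. FCRL1, a B cell receptor-like protein, was above background on 0 of 6 TN arrays and 5 of 6 HS arrays, so it was at least 1.33-fold higher under heat, and its separation rests on TN values at the background. That bound sets the HS mean against the dimmest measured probe of each TN array, or FCRL1's own value where that was higher.

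The genes of fuel use were lower in mean along the whole path from glycogen to ATP synthase. In the fit used throughout, none of them passed the test over all probes. Some passed in alternatives, such as slide as a block, median scaling, array weights or leaving out TN replicate 6. Over all 9919 genes, 55.6% were lower and 44.4% higher, with a median difference of -0.03. At an unadjusted p under 0.05, 17.2% differed, 11.3% lower and 5.93% higher. After adjustment 0.0101% passed, UPK2 alone. These shares are the background for the counts that follow. They are counts of genes read on the same 12 arrays, so the members of a list are not independent of each other. In whole muscle, fewer cells of a type and less RNA per cell cannot be told apart.

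Probes of 3 energy genes are shown because they read different genomes and steps. The PDHA1 and ATP5A1 probes read nuclear transcripts, of the pyruvate dehydrogenase subunit at the entry to the mitochondrion and of the ATP synthase subunit at its end. The ND4L probe reads a mitochondrial transcript, and its capitals mark the last 7 bases of the probe, where the ND4L reading frame ends inside the start of ND4.
PDHA1 (A_72_P645767): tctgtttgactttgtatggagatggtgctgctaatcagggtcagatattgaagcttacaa
ATP5A1 (A_72_P565669): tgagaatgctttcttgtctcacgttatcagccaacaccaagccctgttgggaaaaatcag
ND4L (A_72_P442199): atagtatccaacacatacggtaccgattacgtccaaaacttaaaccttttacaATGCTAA

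Of 16 measured genes of glycogen use, 13 were lower, 6 of them at an unadjusted p under 0.05, with a median of -0.29. PHKA1, a regulatory subunit of phosphorylase kinase, read 14.21, 14.56 and 14.73 in TN and 13.05, 14.01 and 14.47 in HS. It differed by -0.70 (SE 0.20, limma adjusted p = 0.0973), and TN replicate 6 was its lowest TN array. GYS1 (glycogen synthase) differed by -0.43, PYGM (glycogen phosphorylase) by -0.41 and UGP2, which makes UDP-glucose, by -0.50. The glycogen list leaned on 1 array, since its median was -0.17 without HS replicate 5.

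Glycolysis was more divided, with 15 of 20 genes lower and a median of -0.20. PGK1 (phosphoglycerate kinase) read 17.17, 17.67 and 17.74 in TN and 16.60, 17.19 and 17.54 in HS, a difference of -0.43 (SE 0.14, limma adjusted p = 0.123). LDHA, the lactate dehydrogenase subunit of fast fibres, differed by -0.18. LDHB, the subunit of oxidative tissue, was higher by 0.29 (SE 0.13, limma adjusted p = 0.267). SLC2A4, the insulin-responsive glucose transporter, differed by -0.56 (SE 0.24, limma adjusted p = 0.241), and its groups overlapped widely, with 12.52 to 14.17 in TN and 12.18 to 13.40 in HS.

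At the entry to the mitochondrion, 11 of 13 genes of the pyruvate dehydrogenase complex and its kinases were lower, with a median of -0.33. The PDHA1 probe shown above read 10.74, 10.99 and 11.48 in TN and 10.11, 10.48 and 10.58 in HS, a difference of -0.62 (SE 0.13, limma adjusted p = 0.0557) without overlap. The probes of PDHA1 did not read alike. All 5 were lower, by -0.62 to -0.05, and the brightest, A_72_P020186, had the smallest difference. TN replicate 6 read 13.15 there against a TN median of 14.65. Without that array its difference was -0.30.

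DLD, the E3 subunit shared by pyruvate and 2-oxoglutarate dehydrogenase, read 12.99, 13.34 and 13.46 in TN and 11.84, 12.88 and 13.29 in HS. DLD differed by -0.53 (SE 0.15, limma adjusted p = 0.104), with 10 of 10 probes lower. The DLD difference was -0.59 without TN replicate 6 (limma adjusted p = 0.0450), -0.34 without HS replicate 5 (0.258) and -0.40 without both (0.125). PDHB differed by -0.23 and DLAT by -0.34. PDK4, the kinase that shuts the complex in fasting, varied widely in both groups, from 10.84 to 16.05 in TN and from 11.68 to 14.17 in HS. PDK4 differed by -0.78 (SE 0.85, limma adjusted p = 0.670), so the Large White difference was smaller than its standard error. The values were -1.60 in Creole and -3.52 in F1.

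All 17 measured genes of the TCA cycle list, which includes the cytosolic enzymes MDH1 and ACO1, were lower on their brightest probe. Of them, 11 were so at an unadjusted p under 0.05, and the median was -0.30. Of all 77 probes for them, 73 were lower, and SUCLG2 was higher on 2 of 3 probes, by up to 0.02. SDHA, which is also the flavoprotein of complex II, read 16.25, 16.62 and 16.95 in TN and 16.02, 16.24 and 16.35 in HS. It differed by -0.36 (SE 0.10, limma adjusted p = 0.0896) with 6 of 6 probes lower. MDH1 (cytosolic malate dehydrogenase) differed by -0.36 with 5 of 5 probes lower, and CS (citrate synthase) by -0.30. IDH3G had an isolated TN array, replicate 1 at 8.54 against a TN median of 7.77.

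Every one of 33 measured nuclear genes of complex I was lower in HS, and 22 of them were so at an unadjusted p under 0.05. Their median was -0.28, and 63 of all 66 probes for them were lower. NDUFB11 read 15.60, 15.71 and 16.03 in TN and 15.14, 15.35 and 15.62 in HS, a difference of -0.37 (SE 0.08, limma adjusted p = 0.0607) with the groups barely overlapping. The NDUFB9 probe with the largest difference, A_72_P473353, read 15.21, 15.39 and 15.67 in TN and 14.34, 14.76 and 15.10 in HS, without overlap. NDUFB9 differed there by -0.66 (SE 0.13, limma adjusted p = 0.0557), and all 4 of its probes were lower. The F1 difference of that NDUFB9 probe was 0.02 and the Creole difference -0.27. The brightest NDUFB9 probe, O10220, differed by -0.63 in Large White (SE 0.20, limma adjusted p = 0.120), -0.43 in Creole and 0.35 in F1.

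For complexes III and IV, 18 of 20 genes were lower, with a median of -0.28. UQCRC1, a core protein of complex III, read 15.32, 15.45 and 16.15 in TN and 14.74, 14.95 and 15.30 in HS. It differed by -0.58 (SE 0.12, limma adjusted p = 0.0557) and the groups did not overlap. COX7B, of complex IV, read 14.91, 15.16 and 15.31 in TN against 14.45, 14.75 and 14.87 in HS, a difference of -0.46 (limma adjusted p = 0.0557), also without overlap. COX5B differed by -0.28.

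All 16 measured ATP synthase genes were lower, 11 at an unadjusted p under 0.05, with a median of -0.25, and so were 74 of their 75 probes. ATP5A1, the alpha subunit of its catalytic head, read 16.06, 16.31 and 16.72 in TN and 15.77, 15.86 and 16.10 in HS. ATP5A1 differed by -0.44 (SE 0.09, limma adjusted p = 0.0557), all 15 of its probes were lower, and it passed in 10 of 26 alternatives. ATP5J2 read 16.00, 16.11 and 16.38 in TN and 15.74, 15.83 and 15.92 in HS, which did not overlap, and differed by -0.30 (limma adjusted p = 0.0755).

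After quantile normalisation the transcripts of the mitochondrial genome were lower by less than those of complex I. This order depended on the scaling. Under 75th percentile scaling the medians were -0.41 for the mitochondrial genome and -0.39 for complex I, and under median scaling -0.37 and -0.36. Of 13 genes, 12 were lower, 6 at an unadjusted p under 0.05, with a median of -0.19. ND4L read 15.71, 16.09 and 16.33 in TN and 15.47, 15.52 and 15.75 in HS, a difference of -0.45 (SE 0.10, limma adjusted p = 0.0557), and ATP8 differed by -0.40. ND1 differed by -0.06 (SE 0.07) on its brightest probe, and its 20 probes were all lower, by -0.36 to -0.06. Without TN replicate 1 the median of the 13 genes was -0.11. Mitochondrial transcripts are cut from long shared precursors.

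Fatty acid uptake and oxidation were lower in 28 of 35 genes, 12 at an unadjusted p under 0.05, with a median of -0.22 (-0.13 without HS replicate 5). ECI1, an enoyl-CoA isomerase for unsaturated chains, had a median of 10.65 in TN and 9.91 in HS with a narrow overlap of the groups, a difference of -0.78 (SE 0.19, limma adjusted p = 0.0678). HADHB (trifunctional protein) differed by -0.33. CPT1B, the gate for long chains in muscle, differed by -0.26 (SE 0.22), with groups that overlapped almost fully.

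**Figure D2:**
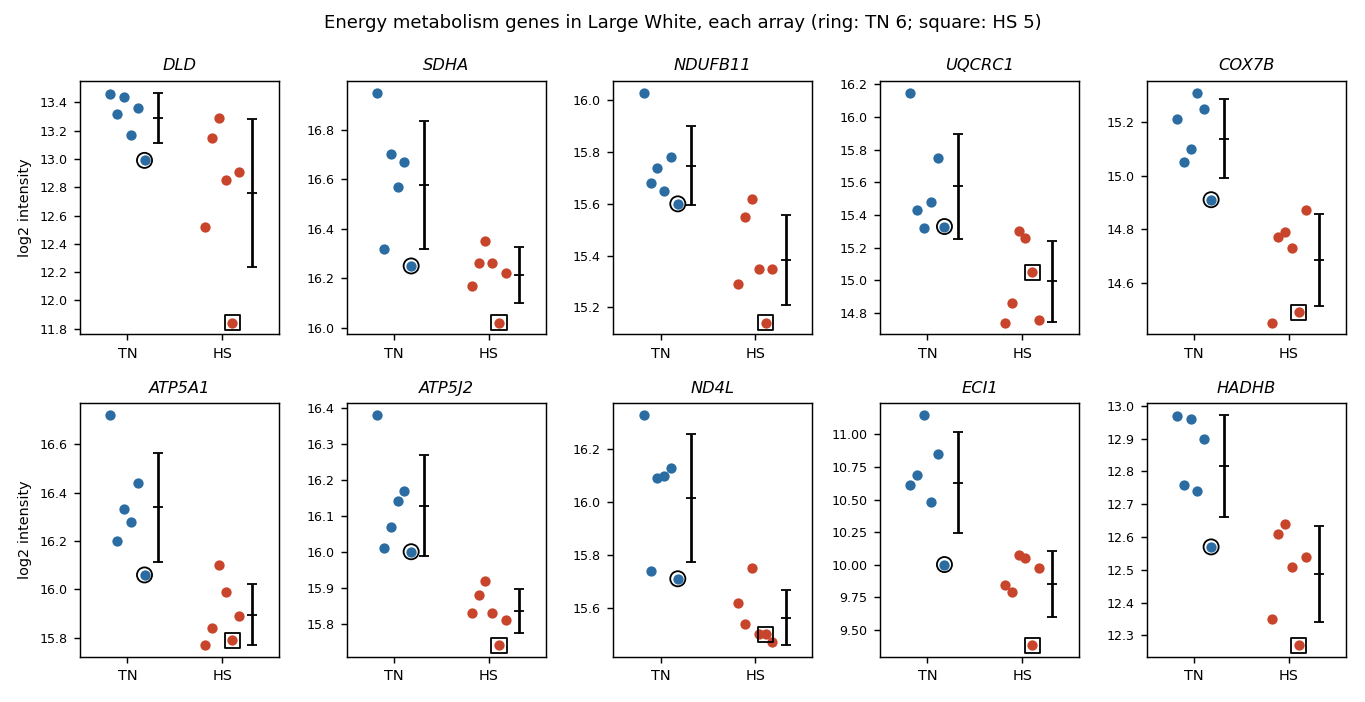
Log2 intensity of 10 energy metabolism genes on each Large White array (TN blue, HS red, 6 arrays each), with the mean and SD as bars, TN 6 ringed and HS 5 in a square. UQCRC1, COX7B and ATP5J2 have no overlap between groups, while DLD spreads from 11.84 to 13.29 in HS.

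The mitochondrial ribosome and biogenesis list was lower in 42 of 43 genes, by a median of only -0.13. PPARGC1A, the coactivator of mitochondrial biogenesis, differed by -0.51 (SE 0.22, limma adjusted p = 0.230). MRPL46 and MRPS11, proteins of the mitochondrial ribosome, differed by -0.41 and -0.28, and MRPL46 passed with slide as a block (limma adjusted p = 0.0328).

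The sign of the energy lists was shared by the 4 slides with both groups, except for fatty acid oxidation on slide 2 (0.04), and the size was not. Each of these slides held 1 Large White TN array. TN replicates 5 and 6 do not enter within-slide values, and TN replicate 6 had the lowest complex I mean of the TN arrays (13.365). From glycogen use to the mitochondrially encoded subunits, the list medians stayed below 0 in all 26 alternatives. Scaling the arrays by their spike-in controls moved the median of all probes to 0.21. As scaled, the median was -0.08 for complex I, 0.05 for fatty acid oxidation and 0.12 for mitochondrial ribosome and biogenesis, and 10 lists took the other sign. Relative to that shift the medians were -0.29 for complex I and -0.16 for fatty acid oxidation, and 0 lists took the other sign. Subtracting the shift centres the probes again, so that agreement is not separate support. For complex I the median was -0.49 on slide 1, -0.07 on slide 2, -0.50 on slide 3 and -0.21 on slide 4, and for the TCA cycle -0.45, -0.10, -0.62 and -0.21. With slide as a block in the fit the medians were -0.31 for complex I and -0.34 for the TCA cycle. Without TN replicate 6 they were -0.32 and -0.36, and without HS replicate 5 they were -0.20 and -0.23. The blocked fit, which gives less weight to TN replicates 5 and 6, also changed calls. In it NDUFB11 (limma adjusted p = 0.0340), UQCRC1 (0.0366), COX7B (0.0366), ATP5A1 (0.0323), ATP5J2 (0.0484), ND4L (0.0421), IDH3G (0.0465) and ECI1 (0.0323) passed, all lower. The probes of NDUFB9 (limma adjusted p = 0.0335) and PDHA1 (0.0446) that were picked for no overlap also passed, both lower. The brightest probes of NDUFB9 (limma adjusted p = 0.0710) and PDHA1 (0.461) did not.

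The responses of Creole (-0.26) and F1 (-0.09) had the same sign for complex I, and the difference between Large White and their mean had an unadjusted p under 0.05 for 1 of 33 genes, against 2.83% of all genes.

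**Figure D3:**
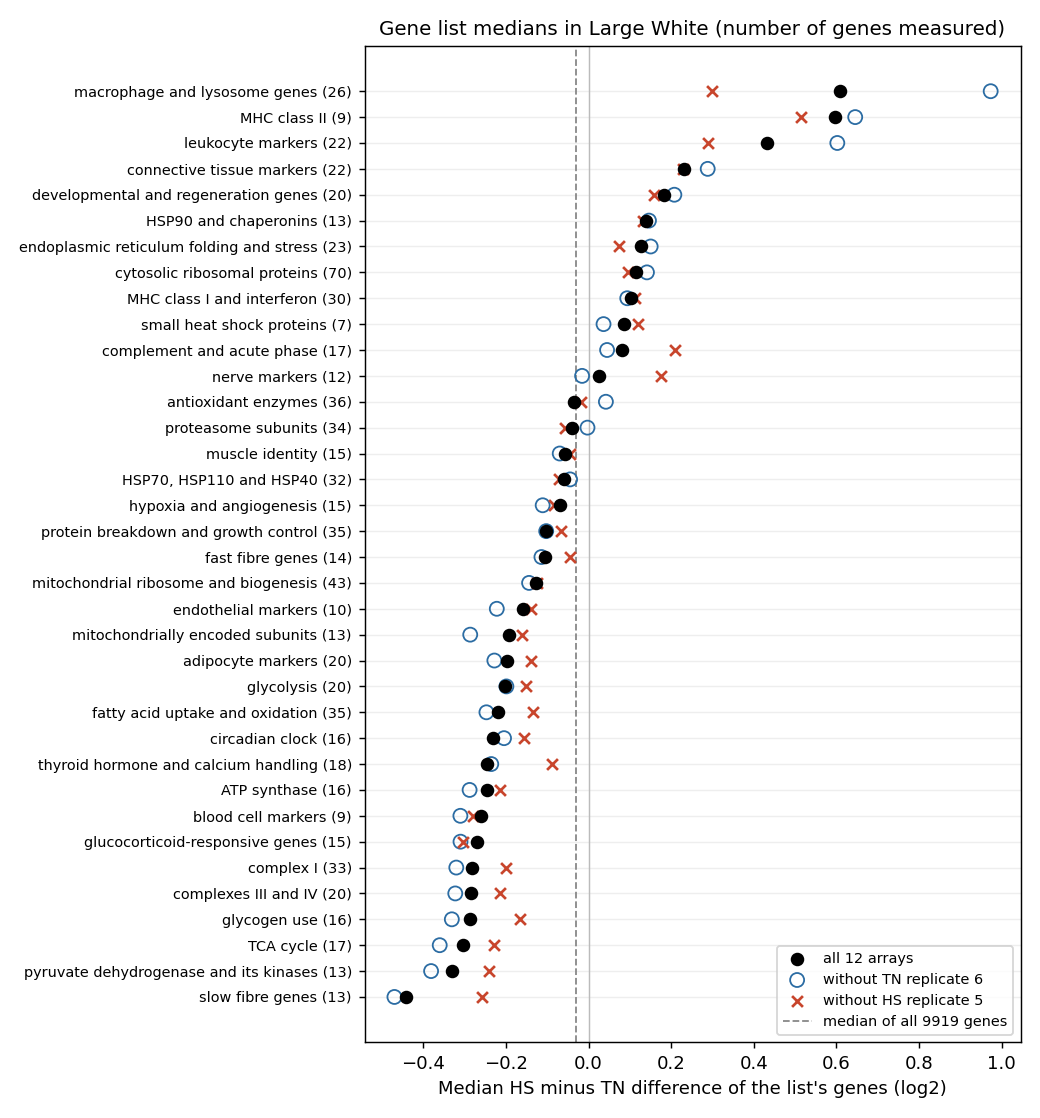
Median HS minus TN difference (log2, horizontal axis) of 36 gene lists in Large White, with the number of genes measured in brackets, for all 12 arrays (black), without TN 6 (open circles) and without HS 5 (crosses). The slow fibre list is lowest at -0.44 and the macrophage list highest at 0.61, and leaving out either array moves the macrophage list most, to 0.97 and 0.30.

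Slow fibre genes had the lowest median of the 36 lists, -0.44, with 12 of 13 genes lower and 6 at an unadjusted p under 0.05. TPM3, slow tropomyosin, read 16.62, 17.06 and 17.27 in TN and 15.96, 16.50 and 16.83 in HS. TPM3 differed by -0.56 (SE 0.15, limma adjusted p = 0.0919), and 3 of its 8 probes were higher. The TPM3 difference was -0.63 without TN replicate 6 (limma adjusted p = 0.0335), -0.46 without HS replicate 5 (0.230) and -0.54 without both (0.104). TNNT1, slow troponin T, differed by -0.44 with 5 of 5 probes lower, and TNNI1, slow troponin I, by -0.45.

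MYOZ2, calsarcin of slow fibres, read 14.19, 14.48 and 15.05 in TN and 12.85, 14.11 and 14.67 in HS, a difference of -0.64 (SE 0.25, limma adjusted p = 0.195) with 13 of 13 probes lower. MYH7, the slow myosin heavy chain, differed by -0.19 (SE 0.11) on its brightest probe, with all 9 probes lower by -0.79 to -0.19, and MYL2, its light chain, by -0.29. The list mean per array ran from 15.16 to 15.67 in TN and from 14.19 to 15.52 in HS. HS replicate 5 was the lowest at 14.19, and without it the list median was -0.26 (-0.29 without TN replicate 1). Fast fibre genes had a median of -0.11 (-0.04 without HS replicate 5), with 12 of 14 lower. Under 75th percentile and median scaling their median was -0.35 and -0.30, with 0 of 14 higher, against -0.60 and -0.55 for slow fibre genes. The fast myosins MYH1 and MYH4 differed by 0.02 and -0.03 on their brightest probes. MYH1 was lower on 3 of 4 probes, down to -0.18, and MYH4 on 8 of 9, down to -0.42.

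Of the 36 lists, with all arrays, the slow fibre list was the one in which Large White stood farthest from the other breeds, followed by the adipocyte list (-0.36). Without HS replicate 5 the Large White slow fibre median was -0.26, and the breed comparison of lists was not computed without that array. The slow fibre median was -0.03 in Creole and 0.10 in F1, and the difference between the Large White response and their mean had a median of -0.40. At an unadjusted p under 0.05 that difference was seen for 3 of 13 genes, against 2.83% of all genes, and for 0 after adjustment in limma's fit. MYL6B, an alkali light chain picked after its values were seen, differed by -0.85 in Large White, 0.53 in Creole and 0.74 in F1, with an unadjusted p of 0.00621 for the difference. MYOZ2 had an unadjusted p of 0.00793 for the same comparison in limma's fit and TPM3 of 0.0363. Both were named for a small Large White p, and the same arrays enter this comparison, so these p-values are descriptions.

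Genes of fat synthesis and storage also had other signs in the F1 crosses. ELOVL6, which lengthens palmitate, read 8.40, 8.97 and 9.47 in TN and 7.56, 7.94 and 8.63 in HS, a difference of -1.02 (SE 0.29, limma adjusted p = 0.0948). ELOVL6 differed by -0.71 in Creole and 0.39 in F1 (unadjusted p = 0.0208 in limma's fit for Large White against their mean). ELOVL6 was named for a small Large White p, so that p-value is a description. SCD, the desaturase that makes oleate, differed by -0.76 in Large White with 11 of 11 probes lower, and by -0.82 and 0.77 in the others. CIDEC, a lipid droplet protein, differed by -0.48, -0.09 and 0.76, and FASN (fatty acid synthase) by -0.45, -0.41 and 0.43, in Large White, Creole and F1 in that order.

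Over the adipocyte markers, 14 of 20 were lower with a median of -0.20, and the median was -0.08 in Creole and 0.37 in F1. The adipocyte list mean ran from 10.07 to 10.32 in TN and from 9.74 to 10.24 in HS. ADIPOQ (adiponectin) differed by -0.18 (SE 0.31), with 9 of 9 probes lower, and LEP (leptin) by 0.09 (SE 0.11). FABP4, a further marker of the list, went the other way, with 8 of 8 probes higher by 0.20 to 0.61. The part of intramuscular fat content in the values of ELOVL6, SCD and CIDEC was not tested.

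**Figure D4:**
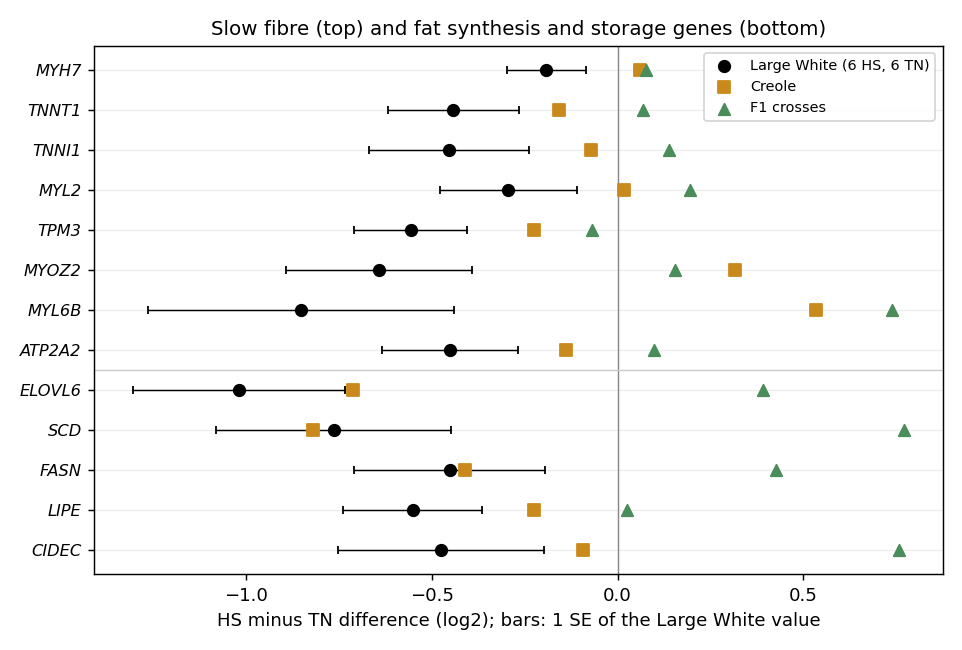
HS minus TN difference (log2, horizontal axis) of 8 slow fibre genes and 5 fat genes in Large White (circles, with 1 SE), Creole (squares) and F1 crosses (triangles). All 13 Large White values are below 0, while F1 values for SCD and CIDEC are 0.77 and 0.76.

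Genes of macrophages, antigen presentation and matrix were higher in mean under heat. Of 26 macrophage and lysosome genes, 24 were higher, 6 of them at an unadjusted p under 0.05 against 5.93% of all genes, with a median of 0.61. LYZ (lysozyme) read 7.75, 10.64 and 12.69 in TN and 10.77, 12.70 and 13.39 in HS, a difference of 2.16 (SE 0.88, limma adjusted p = 0.213). LAPTM5, a lysosomal protein of leukocytes, read 9.39, 10.39 and 11.46 in TN and 10.54, 11.65 and 12.39 in HS, a difference of 1.30 (limma adjusted p = 0.129). CSF1R, the receptor for macrophage growth factor, differed by 0.90 and CTSS (cathepsin S) by 1.21.

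These genes spread over several log2 units within each group, and the 2 arrays that stood apart had the highest list means of their groups. The macrophage list mean ran from 9.76 to 12.05 in TN, the highest being TN replicate 6, and from 10.53 to 12.39 in HS, the highest being HS replicate 5. Within slides the median was 0.91, -0.06, 2.29 and 0.34. The median was 0.97 without TN replicate 6, 0.30 without HS replicate 5, 0.31 without TN replicate 3 and 0.18 with array brightness as a covariate. LAPTM5 differed by 1.53 without TN replicate 6 (limma adjusted p = 0.0472), by 1.15 without HS replicate 5 (0.295) and by 1.38 without both (0.137). Brightness had a higher median in the HS arrays, 9.36 against 9.02.

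The leukocyte marker list, which shares 5 genes with the macrophage list, was higher in 20 of 22 genes with a median of 0.43. Its mean ran from 7.76 to 9.40 in TN and from 8.26 to 9.83 in HS, so the groups overlapped over most of their range. The general leukocyte marker PTPRC (CD45) differed by 0.12 (SE 0.13) on its brightest probe and by up to 0.71 over 3 probes, all higher, the T cell marker CD3E by 0.16 (SE 0.18) and up to 0.24 over 2 probes, and the macrophage scavenger receptor CD163 by 0.49 (SE 0.45). All 3 of these defining markers were read over background on every Large White array.

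Class II antigen presentation was higher in 8 of 9 genes, 6 at an unadjusted p under 0.05, with a median of 0.60. The sign was the same on the 4 slides that held both groups, which leave out TN replicates 5 and 6. SLA-DQA1 read 13.01, 13.47 and 13.93 in TN and 13.58, 14.25 and 14.55 in HS, a difference of 0.70 (SE 0.28, limma adjusted p = 0.206). CD74, the invariant chain, read 10.50, 10.71 and 10.78 in TN and 10.74, 11.24 and 11.57 in HS, a difference of 0.54. This list moved less with single arrays than the macrophage list did, with 0.65 without TN replicate 6 and 0.51 without HS replicate 5. Genes of class I and interferon had a median of 0.10, with 22 of 30 higher, which turned to -0.02 without HS replicate 6, their highest array.

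C3, the central complement protein, read 8.84, 9.42 and 10.42 in TN and 9.74, 10.99 and 11.81 in HS, a difference of 1.41 (SE 0.35, limma adjusted p = 0.0757) with 6 of 6 probes higher. CLU (clusterin), an extracellular chaperone, read 10.60, 12.14 and 13.44 in TN and 12.32, 13.64 and 14.52 in HS, a difference of 1.55 (SE 0.47, limma adjusted p = 0.115). A2M, a protease inhibitor, differed by 1.40. The complement and acute phase list as a whole had a median of 0.08, with 11 of 17 higher. Single arrays moved it from -0.001 without HS replicate 1 to 0.21 without HS replicate 5.

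Connective tissue markers were higher in 19 of 22 genes, with a median of 0.23, and their mean ran from 11.66 to 12.25 in TN and from 12.15 to 12.52 in HS. SPARC, a collagen-binding matrix protein, read 16.56, 17.05 and 17.34 in TN and 17.30, 17.41 and 17.65 in HS. It differed by 0.42 (SE 0.12, limma adjusted p = 0.107) with 8 of 8 probes higher. BGN (biglycan) differed by 0.70 and COL6A3 by 0.52, while the fibrillar collagens COL1A1 and COL3A1 differed by 0.18 each (SE 0.24 and 0.15). The energy and slow fibre values stand beside these higher leukocyte and matrix levels on the same arrays, and the part of tissue composition in them was not tested.

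**Figure D5:**
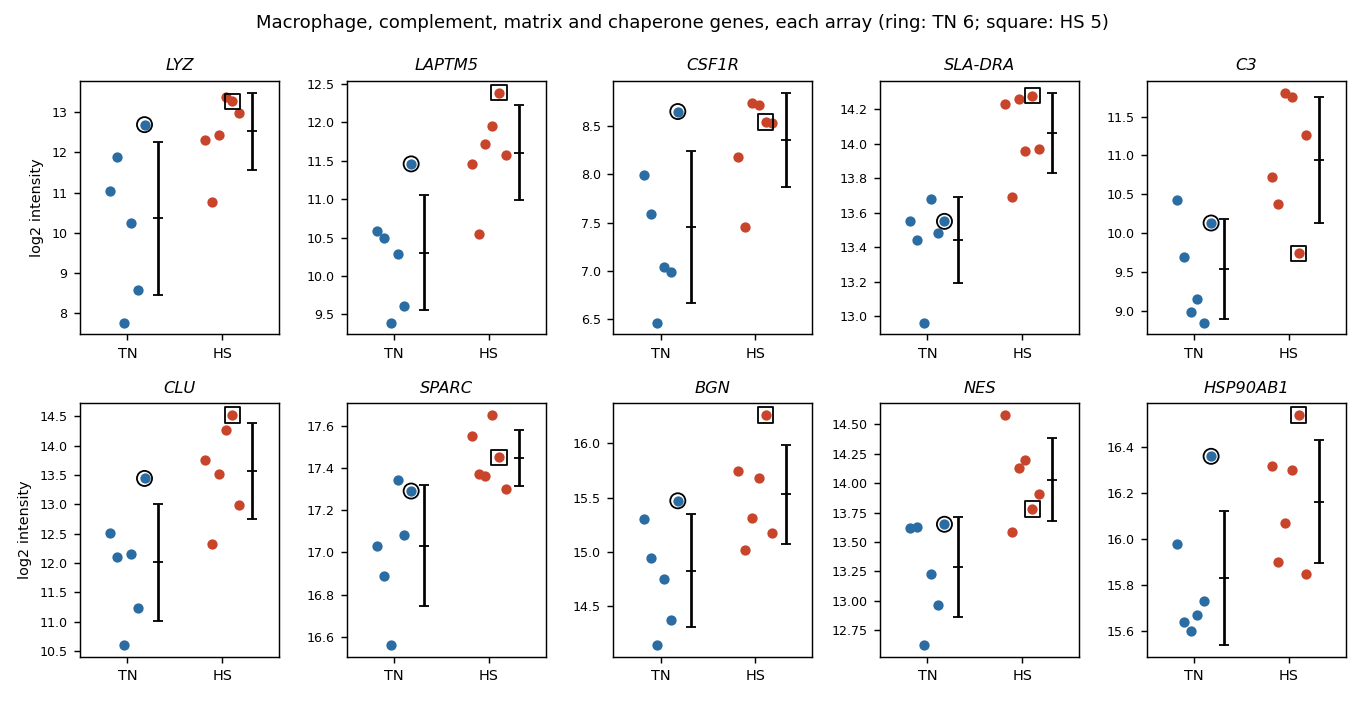
Log2 intensity of 10 macrophage, antigen presentation, complement, matrix, developmental and chaperone genes on each Large White array (TN blue, HS red, 6 arrays each), with the mean and SD as bars, TN 6 ringed and HS 5 in a square. SLA-DRA is the gene of the 10 without overlap, and LYZ spans 7.75 to 12.69 in TN.

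None of the chaperone genes measured here passed the test in the fit without the slide. Of 13 HSP90 and chaperonin genes, 9 were higher with a median of 0.14, which was -0.05 under 75th percentile scaling. HSP90AB1, the constitutive cytosolic HSP90, read 15.60, 15.70 and 16.36 in TN and 15.85, 16.19 and 16.54 in HS, a difference of 0.33 (SE 0.13, limma adjusted p = 0.193). HSP90AB1, with its highest TN array (replicate 6) left out, differed by 0.44 (limma adjusted p = 0.0491), without HS replicate 5 by 0.26 (0.429) and without both by 0.37 (0.149). All 7 of its probes were higher. HSP90AA1, the inducible form, differed by 0.21 with 8 of 8 probes higher, and HSPD1, the mitochondrial chaperonin, by 0.28 with 20 of 21.

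The HSP70, HSP110 and HSP40 genes gave a median of -0.06, with 12 of 32 higher. HSPA6, an inducible HSP70 picked after its values were seen, differed by -0.54 (SE 0.77, limma adjusted p = 0.759) and ranged from 7.95 to 12.3 in TN and from 8.01 to 10.85 in HS. HSPA8, the constitutive HSP70, differed by -0.02 (SE 0.13) and its sign depended on the setting. HSPH1 (HSP110) differed by 0.18 (SE 0.23) and DNAJA2, an HSP40 co-chaperone, by -0.31 (SE 0.11), which passed with slide as a block (limma adjusted p = 0.0460). HSPA5, the HSP70 of the endoplasmic reticulum, differed by -0.09 (SE 0.23), although 18 of 23 genes of endoplasmic reticulum folding were higher, 0 of them at an unadjusted p under 0.05. Small heat shock proteins had a median of 0.09, with 4 of 7 higher, and HSPB1 differed by 0.12 and took the other sign under median scaling. HSF1, the transcription factor that drives the response, differed by -0.24.

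Cytosolic ribosomal protein genes had a small difference shared by many members. Of 70 genes 61 were higher, 21 at an unadjusted p under 0.05, with a median of 0.11, which was -0.06 under 75th percentile scaling and -0.01 under median scaling. RPL11 read 16.95, 16.99 and 17.09 in TN and 17.08, 17.25 and 17.33 in HS, a difference of 0.23 (SE 0.06, limma adjusted p = 0.0757) with a narrow overlap. RPS3A differed by 0.27 and passed with slide as a block (limma adjusted p = 0.0465). TN replicate 6 had the highest ribosomal mean of its group, 15.80 against 15.58 to 15.65.

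Developmental and regeneration genes were mixed in sign, with 12 of 20 higher and a median of 0.18. At an unadjusted p under 0.05, 7 of them were higher and 1 lower, against 5.93% and 11.3% of all genes. NES (nestin), an intermediate filament of new fibres, read 12.62, 13.42 and 13.65 in TN and 13.58, 14.02 and 14.58 in HS, a difference of 0.74 (SE 0.21, limma adjusted p = 0.0940) with 7 of 7 probes higher. MYH3, embryonic myosin, differed by 1.67 with an SE of 0.89, and read from 10.82 to 14.37 in TN. PAX7, the satellite cell factor, went the other way. It read 8.23, 8.53 and 8.77 in TN and 7.88, 8.05 and 8.28 in HS, a difference of -0.46 (SE 0.11, limma adjusted p = 0.0644, or 0.0458 with slide as a block).

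Hormone and vessel genes were lower in mean. Of 15 glucocorticoid-responsive genes 13 were lower, with a median of -0.27 (-0.41 in Creole and -0.37 in F1). KLF9, a direct target of the glucocorticoid receptor, read 11.93, 12.32 and 13.09 in TN and 11.40, 11.61 and 12.03 in HS, a difference of -0.72 (SE 0.21, limma adjusted p = 0.1003) with 11 of 11 probes lower, and ZBTB16 differed by -0.56. Thyroid hormone and calcium handling genes were lower in 15 of 18, with a median of -0.24 that was -0.09 without HS replicate 5. FLT1, a VEGF receptor, read 6.96, 7.05 and 7.89 in TN and 6.39, 6.80 and 6.92 in HS without overlap, a difference of -0.47 (SE 0.12, limma adjusted p = 0.0757). Endothelial markers were lower in 9 of 10, with a median of -0.16 that was -0.06 without TN replicate 1, and blood cell markers in 8 of 9, with a median of -0.26.

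The remaining lists had medians near that of all genes. They were -0.04 for antioxidant enzymes (17 of 36 higher), -0.04 for proteasome subunits (14 of 34 higher), -0.07 for hypoxia and angiogenesis (4 of 15 higher), 0.02 for nerve markers (8 of 12 higher) and -0.06 for muscle identity (3 of 15 higher). The muscle identity median depended on the scaling. It was -0.32 under 75th percentile scaling and -0.28 under median scaling, with 0 of 15 genes higher in either. The medians of all probes were then -0.05 and -0.07. The antioxidant and nerve medians took the other sign without TN replicate 6. Members of the nerve list spread widely around its median. The neurofilament genes NEFH and NEFM differed by 1.725 (SE 0.63, limma adjusted p = 0.167) and 1.365 (SE 0.50, 0.173), and CNP by -0.29 (SE 0.08, 0.0973). At an unadjusted p under 0.05, 2 nerve genes were higher and 2 lower. Protein breakdown and growth control had a median of -0.10 (11 of 35 higher) and the circadian clock one of -0.23 (6 of 16 higher, -0.11 without HS replicate 6). TRIM63, the muscle ubiquitin ligase MuRF1, read 13.68, 13.94 and 14.59 in TN and 14.12, 14.29 and 15.15 in HS. TRIM63 differed by 0.41 in Large White (limma adjusted p = 0.258), by -0.24 in Creole and by -0.12 in F1, with an unadjusted p of 0.0145 for Large White against their mean. It was the 1 of 35 genes of its list under 0.05 there, against 2.83% of all genes.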

How the data were processed

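Longissimus muscle RNA was hybridised to 1-colour Agilent porcine arrays, 1 pig per array, which the authors read with Agilent's Feature Extraction software (10.10.1.1 in the headers). The authors' scanner files give each spot's linear intensity together with its quality flags. The deposited value table of 40649 probes is in log2 units, quantile-normalised and filtered by the authors, and served as an alternative. All 35 of its columns matched their own arrays best.

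Here the median spot intensity, without control spots, was quantile-normalised between arrays and then put on the log2 scale, and the 105 spots with outlier flags were treated as missing. The filter asked for a signal clearly over background on 75% or more of the arrays in any 1 group. A symbol was found for 25472 of 60305 probes (42.2%) through the reference gene tables or the files. No probe was mapped to the genome.

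A model with 1 mean per group was fitted over all 35 arrays with limma 3.58.1 in R 4.3.3, with Benjamini-Hochberg adjustment at 0.05. The random terms of the study's model (pen, slaughter day, parents) are not in the labels. Replicate numbers follow the order of deposition. The members, the gene lists and the alternatives were chosen with earlier results of these data known. Of the genes, those named were the probes that passed, the 8 largest non-overlapping differences each way, a fixed set, and the 3 of each list with the smallest p, besides members named for their role. A few genes that this rule selects are not reported here. The number of arrays limits the precision: in simulated data, 39.5% of 200 probes changed by 0.5 and 90.5% of those changed by 1 were recovered in the Large White comparison. The simulated noise was independent for each probe and array. Variation that probes share on an array was not simulated, so recovery in the real data can differ.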

Additional observations from a re-analysis of the deposited data

Results flagged for a closer look

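Of 358 groups of 6 Large White values examined, 26 held a lowest or highest value that lay far from the rest for the width of the group by Dixon's criterion. Chance alone gives about 1 in 20.

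HS replicate 5 was the isolated array most often. It was the lowest of the HS arrays for LDHA (18.02), PFKM (16.82), MDH1 (13.85), CASQ1 (17.42), HSPB2 (13.01) and VEGFA (7.75). Its means were also the lowest for the thyroid hormone and calcium handling list (12.39) and the hypoxia and angiogenesis list (9.67), and its median correlation with the other arrays was 0.9759. PFKM is phosphofructokinase of muscle and CASQ1 the calcium store protein of fast fibres.

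HS replicate 2 was isolated and low for SLA-DOA (8.44), for the unnamed probe A_72_P423769 (6.44) and for the mean of complement and acute phase genes (9.80). HS replicate 3 was low for COL1A1 (14.98) and high for DNAJA2 (11.09). HS replicate 4 was low for SCD (11.40).

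Among the TN arrays, replicate 3 had the lowest share of probes well above background (58.40%) and was low for SLA-DRA (12.96), CD74 (10.50) and the mean of MHC class II genes (10.67). TN replicate 1 was high for FLT1 (7.89), IDH3G (8.54) and the mean of endothelial markers (10.80). TN replicate 6 was low for PGK1 (17.17) and PHKA1 (14.21) and high for the mean of ribosomal protein genes (15.80). TN replicate 4 was high for TMEM8B (7.73).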

How the results depend on the processing

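The 2 probes called in Large White became 0 with the Large White arrays alone (smallest limma adjusted p 0.0930, 5654 at an unadjusted p under 0.05) and 0 with array brightness as a covariate (smallest adjusted p 0.0851, 3988 unadjusted). They became 14 with normexp background correction (3 higher, 11 lower), 11 with 1 probe per gene (1 higher, 10 lower), 98 with slide as a random block (24 and 74), 102 with 75th percentile scaling (16 and 86), 325 with median scaling (33 and 292), 353 with slide as a fixed block (111 and 242) and 890 with array weights (345 and 545). Spike-in scaling moved the median of all probes to 0.21 and gave 401 calls, 399 of them higher, and 10 list medians took the other sign. These counts were made without subtracting that shift. The count stayed at 2 with the deposited table, with no filter on dim probes and with probes above background on all arrays. Leaving out 1 array gave 0 to 1064 calls: 0 without TN replicate 1 or 5 or HS replicate 1, 5 or 6, 1 without HS replicate 2 or TN replicate 4, 3 without TN replicate 2, 204 without HS replicate 3 (39 higher, 165 lower) and 1064 without TN replicate 6. Without TN replicate 6 and HS replicate 5 together, an alternative chosen after seeing the data, there were 28 (11 and 17). The cause of these changes was not tested. The Large White response against the mean of the others gave 0 calls in every setting run. With slide as a fixed block, which gives less weight to TN replicates 5 and 6, 20 of 139 named genes and probes passed. Of the 139, 13 took the other sign in at least 1 setting (6 with spike-in scaling set aside), as did 25 of 962 list medians under alternatives (15 likewise). No paired analysis was possible because the replicate numbers follow the order of deposition and link no animals.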
